A study of Rattus norvegicus with 2 samples.

Results

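The 10 genes described here take up, store, export or sense iron in rat cells. They were listed by name as iron transport and storage genes, and no measured value enters the rule, although earlier results of these data were known when the list was made. They are Tf and Tfrc of the transferrin route, the metal transporters Slc11a2 and Slc11a1, the ferritin subunits Fth1 and Ftl1, the exporter Slc40a1 with the ferroxidase Cp, and the iron sensors Aco1 and Ireb2. All 10 of 10 were found among 26913 genes or unmatched transcripts on the arrays, through 15 probes, with 2 probes for 5 of the genes and 1 for the other 5.

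The cells were stromal cells grown out of bone marrow, which adhere to the dish and support blood formation in the body. They came from wild type Sprague-Dawley rats (control) and from rats of Sprague-Dawley origin that carry both the human angiotensinogen and the human renin gene (double transgenic). Age, sex, the promoters of the transgenes and the number of animals or cultures behind each array are not given in the sources used here. In both groups 150000 cells were plated in each well of 6-well plates and grown until subconfluent, and total RNA labelled with Cy3 was hybridised to 1-colour Agilent rat arrays. With 1 array for control and 1 for transgenic there is no replicate check and no test between groups, and every value describes these 2 arrays.

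Cells take in iron bound to transferrin through the transferrin receptor, reduce it in the endosome and move it into the cytosol through a divalent metal transporter. Iron that is not used is stored in ferritin shells of heavy and light chains or leaves through ferroportin, after which a ferroxidase oxidises it for loading onto transferrin. Iron regulatory proteins bind hairpins called iron-responsive elements, which protects the receptor's transcript from decay and blocks translation of the ferritin transcripts when iron is scarce. Transcript levels such as those measured here therefore do not give protein levels.

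Signals are in scanner units after background subtraction. A difference is the transgenic minus the control log2 signal, after each array's own 75th percentile over probes (905 and 1080 units) was subtracted, and a fold change is that difference on a linear scale. A probe was called above background if more than 50% of its spots carried the scanner's well-above-background mark, a size rule of 2-fold stood in place of a test, and the error given combines the errors that the scanner software reports for both signals, which holds no variation between animals or cultures. Of 30367 probes, 60.2% passed in control and 60.8% in transgenic, and no spot was saturated. The scaling sets the level from which all differences are read. With the arrays scaled on 8 E1A spike-in probes instead, every difference moved up by 1.09 log2, and the share of all genes at least 2-fold higher became 50.8% in place of 10.5%, with 2.21% lower in place of 10.3%. The values that follow thus state how a gene differed against most genes of its array.

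Tf and Slc11a2 were past 2-fold among the 8 iron genes above background on both arrays, both higher in the transgenic array, and 0 were past 2-fold lower. Cp and Slc11a1 were above background on the transgenic array only, each with a ratio past 2-fold to its dim control signal. Of 17214 genes above background on at least 1 array, 5.41% were so on the transgenic array only and 2.5% were so with a bound of at least 2-fold. The other 6 genes, Tfrc, Fth1, Ftl1, Slc40a1, Aco1 and Ireb2, lay within 2-fold. Of the 15501 genes or transcripts above background on both arrays, 10.5% were at least 2-fold higher and 10.3% at least 2-fold lower, so the 2 of 8 higher (25.0%) stand beside 10.5%, and the 0 lower beside 10.3%. The median difference of the 8 genes was 0.39 log2, and that of all genes was -0.07 log2.

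**Figure D1:**
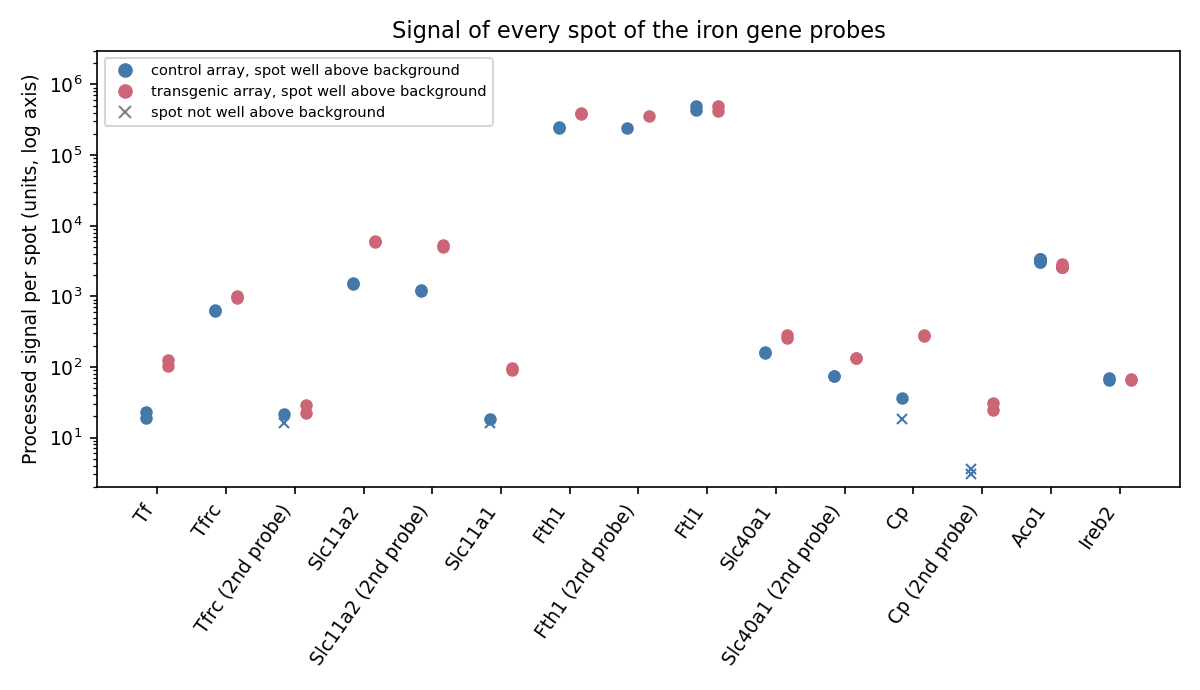
Processed signal of every spot of the 15 iron gene probes on a log axis in scanner units, with control spots in blue, transgenic spots in red and crosses for spots not well above background. The spots of Slc11a2 are apart on both of its probes, while the raw signals of Ftl1 and of Ireb2 overlap between the arrays.

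Transferrin itself was the more different gene of the transferrin route. Tf (NCBI gene 24825) encodes the plasma protein that carries iron to cells. Its probe read 23.1 and 18.6 units in control and 103 and 124 units in transgenic, so the spots did not overlap. The fold change was 4.56 in favour of transgenic (2.19 ± 0.32 log2, scanner error), and 2.20% of all genes above background on both arrays had a higher difference. The control signal lay close to the lowest signal called above background on that array, 15.3 units. With normexp correction the difference was 0.86 log2, short of 2-fold. In the authors' deposited table it was 1.00 log2.

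Tfrc (NCBI gene 64678), the receptor that brings transferrin into the cell, was within 2-fold. Its brighter probe read 634 and 622 units in control and 956 and 1008 in transgenic. The transgenic spots were higher before scaling and after it, at 1.31-fold (0.39 ± 0.20 log2). Its dimmer probe read 16.2 and 21.7 units in control, where 1 of 2 spots was above background, and 22.3 and 29.2 in transgenic. It differed by 0.19 ± 0.41 log2, less than its error. With spike-in scaling the brighter probe came to 1.47 log2, past the size rule. The difference of Tf exceeded that of Tfrc by 1.80 ± 0.38 log2. The gap was smaller with normexp correction, where Tf differed by 0.86 and Tfrc by 0.41 log2, and by the authors' deposited table, at 1.00 and 0.39 log2.

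The sequences before the start sites of these genes are shown because the carrier and its receptor differed unequally between the arrays. Each line below gives the 250 bases before a RefSeq start in the build GRCr8, 5′ to 3′ on the gene's strand, and the capitals mark matches to 6 motifs searched on both strands. The motifs were the hypoxia-inducible factor cores ACGTG and GCGTG, the C/EBP motif TTGCNNAA, the AP-1 motif TGANTCA, the TATA motif TATAAA and the kappaB motif. Among 33469 promoters of the same length they were present in 16.6%, 25.9%, 9.22%, 6.34%, 12.9% and 6.33%. A match describes these letters and shows no binding. Entries were found for 7 of the 10 genes. Fth1, Ftl1 and Slc11a1 had none.
Tfrc, chr11:81690319-81690568, minus strand: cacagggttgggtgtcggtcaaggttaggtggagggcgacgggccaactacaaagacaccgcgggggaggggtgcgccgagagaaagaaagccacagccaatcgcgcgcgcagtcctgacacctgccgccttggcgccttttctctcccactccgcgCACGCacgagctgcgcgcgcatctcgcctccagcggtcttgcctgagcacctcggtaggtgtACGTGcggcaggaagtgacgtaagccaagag
Tf, chr8:112695377-112695626, minus strand: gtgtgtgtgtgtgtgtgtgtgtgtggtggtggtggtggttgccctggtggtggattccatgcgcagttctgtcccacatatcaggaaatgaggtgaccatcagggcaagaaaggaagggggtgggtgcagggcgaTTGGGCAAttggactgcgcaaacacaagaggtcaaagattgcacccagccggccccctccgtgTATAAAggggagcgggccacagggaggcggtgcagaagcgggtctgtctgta
The Tfrc promoter held ACGTG at -31 to -27 and GCGTG, on the other strand, at -93 to -89 from the start, in a window of 64.8% G and C. The Tf window held TATAAA at -52 to -47 and a C/EBP match, on the other strand, at -115 to -108, and no hypoxia core.

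Slc11a2 was higher in the transgenic array on both of its probes. Slc11a2 (NCBI gene 25715) encodes the divalent metal transporter DMT1, which moves ferrous iron out of endosomes and, in the gut, across the cell surface. Its brighter probe read 1551 and 1480 units in control and 6113 and 5778 in transgenic. The other probe read 1175 and 1220 units in control and 5286 and 5015 in transgenic. On both probes every transgenic spot lay above every control spot. The folds were 3.29 (1.72 ± 0.20 log2) and 3.60 (1.85 ± 0.20 log2), and 3.99% of all genes had a higher difference than the first. The brighter probe ran from 1.65 to 2.80 log2 over 9 alternative settings, all past 2-fold. Keeping of outlier spots and a looser background rule left it at 1.72 log2, so these settings do not test it. In the authors' deposited table the probes differed by 1.65 and 1.69 log2. Both probes carry the same RefSeq transcript, so the isoforms with and without an iron-responsive element were not told apart.

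RefSeq lists more than one start for this gene, and both windows are shown because neither probe tells which start was used.
Slc11a2, chr7:133417789-133418038, minus strand: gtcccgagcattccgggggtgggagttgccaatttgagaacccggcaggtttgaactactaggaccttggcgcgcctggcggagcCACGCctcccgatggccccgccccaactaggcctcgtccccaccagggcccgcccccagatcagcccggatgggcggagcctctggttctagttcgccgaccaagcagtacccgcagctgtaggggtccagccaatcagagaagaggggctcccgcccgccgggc
Slc11a2, chr7:133418940-133419189, minus strand: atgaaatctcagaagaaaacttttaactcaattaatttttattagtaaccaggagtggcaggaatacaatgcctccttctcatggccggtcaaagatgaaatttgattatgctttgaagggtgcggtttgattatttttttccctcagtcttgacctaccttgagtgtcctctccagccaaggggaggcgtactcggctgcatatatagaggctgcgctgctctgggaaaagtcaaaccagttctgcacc
The first window had 68.0% G and C and 1 GCGTG match on the other strand at -165 to -161. The second, farther upstream, had 43.6% G and C and none of the 6 motifs.

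Slc11a1 (NCBI gene 316519), formerly called Nramp1, is the phagosomal metal transporter known from macrophages. It read 18.4 and 15.9 units in control, where 1 of 2 spots was well above background, and 97.1 and 90.2 units in transgenic. The ratio to its own dim control signal was 4.58 (2.19 ± 0.35 log2), which is a measured ratio and not a firm bound. With normexp correction it was 0.80 log2 and by the authors' deposited table it was 0.94 log2, both under 2-fold. Most macrophage markers were lower in the transgenic array. Of the 16 markers on the array, 9 were above background on both arrays, with a median of -2.57 log2. Of these 9, 6 (66.7%) were at least 2-fold lower and 2 (22.2%) higher, beside 10.3% and 10.5% of all genes. The 2 higher were Cd14 (590 and 2426 units) and Cd68 (602 and 2152 units). A further 3, Adgre1, C1qa and C1qc, were above background in control only, and Ptprc, Itgam, Cd163 and Mrc1 on neither array. The summed signal of the 16 markers was 18116 units in control, where Lyz2 alone read 8372, and 5587 in transgenic, mostly from Cd14 and Cd68. The part of these cells in the Slc11a1 signal was not tested, and in bulk RNA fewer cells of a type and less RNA per cell cannot be told apart.

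The ferritin subunits did not shift together. Fth1 (NCBI gene 25319) encodes the heavy chain, which carries the ferroxidase site, and Ftl1 (NCBI gene 29292) the light chain, which favours formation of the iron core. The first probe of Fth1 read 241530 and 248117 units in control and 376399 and 389075 in transgenic. Its second probe, with 1 spot, read 243797 and 360484 units. The folds were 1.31 (0.39 ± 0.20 log2) and 1.24 (0.31 ± 0.20 log2), within 2-fold. Ftl1 read 432511 and 489281 units in control and 414557 and 489358 in transgenic, and these raw spots overlapped. After scaling its difference was -0.28 ± 0.20 log2, and this sign turned with quantile scaling (0.03), in the authors' deposited table (0.06) and with spike-in scaling (0.80).

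The heavy chain's difference exceeded that of the light chain by 0.68 ± 0.29 log2, or 1.60-fold, on their main probes. Both chains were read near the top of the scanner's range, where a saturated spot reads 780324 units. The spike-in probes give a measure of the response there. Of the 6 dimmer E1A probes, from 154 to 200631 units in control, 5 differed by -0.89 to -0.78 log2 before scaling, and the other read 1413 units in control and 706 in transgenic. The brightest pair differed by -0.50 (300114 units) and -0.14 log2 (541514 units). Unscaled differences of spike-in probes were thus smaller at the brightness of Ftl1 than at lower brightness. The part of this in the ferritin values was not tested. RefSeq also names 6 further copies of Fth1 and 21 of Ftl1, of which 5 and 15 are pseudogenes, and none was matched to a probe. A probe may read transcripts of a near-identical copy, so the ferritin values are uncertain in that respect too.

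**Figure D2:**
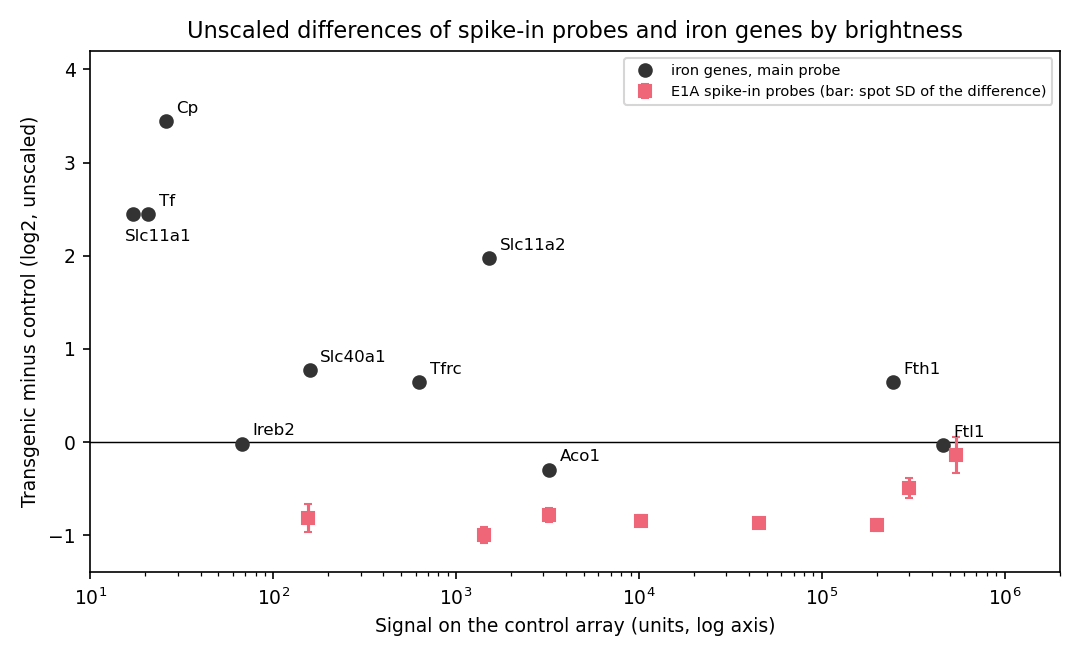
Unscaled transgenic minus control difference (log2) against control signal (units, log axis) for 8 E1A spike-in probes (red squares, bars from the spot SDs) and the main probe of each iron gene (black). The brightest E1A probes lie at -0.50 and -0.14 log2, above the other 6. Ftl1 (460021 units) lies between those brightest probes, and Fth1 (244801 units) between them and the next probe at 200631 units.

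On the export side, the exporter was within 2-fold and the ferroxidase was not. Slc40a1 (NCBI gene 170840) encodes ferroportin, the iron exporter that hepcidin degrades. Its main probe read 156 and 160 units in control and 260 and 281 in transgenic. The second probe read 74.4 and 73.4 units in control and 133 and 134 in transgenic. The spots did not overlap on either probe, at 1.43-fold (0.52 ± 0.21 log2) and 1.51-fold (0.60 ± 0.22 log2). The importer Slc11a2 exceeded the exporter by 1.20 ± 0.29 log2 in its difference, or 2.29-fold.

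Cp (NCBI gene 24268) encodes ceruloplasmin, the copper ferroxidase that oxidises exported iron and is known as an acute phase protein. Its main probe read 18.2 and 36.7 units in control, where 1 of 2 spots was well above background, and 285 and 277 in transgenic. The measured ratio was 9.12 (3.19 ± 0.30 log2). The control spots differed from each other (SD 0.71 log2), and the ratio ran from 6.34 to 13.1 across pairs of spots. The second probe was not well above background on either control spot and read 24.4 and 31.2 units in transgenic, which gives at least 1.51-fold. With normexp correction the main probe differed by 1.57 log2, and in the authors' deposited table by 1.68 log2. The second probe differed by 0.39 log2 in that table, within 2-fold. Under each of the 9 alternative settings the main probe was past 2-fold higher. Averaging of probes, keeping of outlier spots and a looser background rule left it at 3.19 log2, so these settings do not test it.

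The Cp promoter is shown because the main probe of Cp, like that of Slc11a2, was past 2-fold under each alternative scaling. The same held with normexp correction and in the authors' deposited table.
Cp, chr2:104368420-104368669, plus strand: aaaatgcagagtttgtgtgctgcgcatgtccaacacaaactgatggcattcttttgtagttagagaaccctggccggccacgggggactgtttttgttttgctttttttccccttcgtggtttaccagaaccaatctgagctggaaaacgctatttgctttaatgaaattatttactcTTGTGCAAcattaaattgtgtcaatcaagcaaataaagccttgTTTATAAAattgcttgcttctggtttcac
It held a C/EBP match, on the other strand, at -72 to -65. A pair of overlapping TATAAA matches, 1 on each strand, lay between -29 and -22, in a window of 39.6% G and C. The Tf and Cp windows were the only ones of the 8 shown or searched for these genes with TTGCNNAA or TATAAA. The Slc40a1 and Ireb2 windows held none of the 6 motifs and that of Aco1 held 1 GCGTG match.

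Both iron sensors lay within 2-fold. Aco1 (NCBI gene 50655) encodes a cytosolic aconitase that becomes iron regulatory protein 1 when it loses its iron-sulfur cluster. Its 10 spots read 3071 to 3385 units in control, with a median of 3250, and 2569 to 2843 in transgenic, with a median of 2623. The arrays did not overlap on this probe. The difference was -0.55 ± 0.20 log2, or 1.46-fold lower, and 23.9% of all genes had a lower one. Ireb2 (NCBI gene 64831) encodes iron regulatory protein 2, which is degraded when iron is plentiful. It read 69.8 and 65.8 units in control and 65.7 and 68.1 in transgenic, spots that overlapped before scaling, and differed by -0.27 ± 0.23 log2. Both signs turned with spike-in scaling, to 0.54 and 0.81 log2. The difference of Aco1 minus that of Ireb2 was -0.28 ± 0.31 log2, less than its error. The difference of Tfrc exceeded that of Aco1 by 0.94 ± 0.29 log2.

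**Figure D3:**
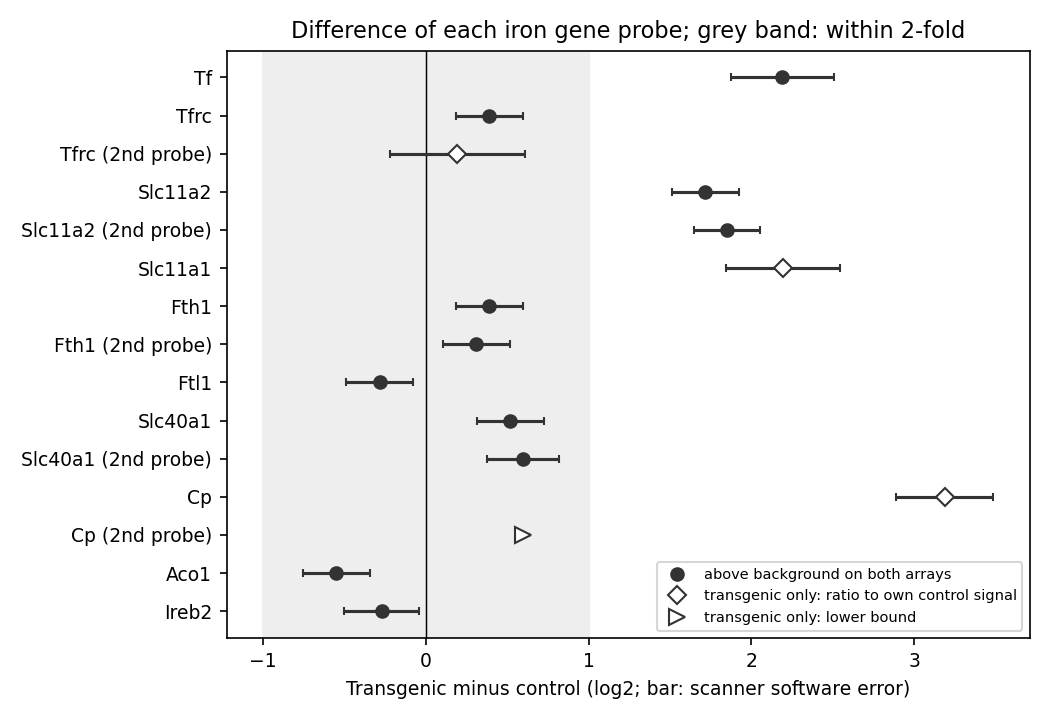
Difference of each iron gene probe (log2, transgenic minus control) with the scanner software's error as bars. Filled circles are probes above background on both arrays, open diamonds probes so on the transgenic array only (ratio to their own control signal), the open triangle a lower bound, and the grey band spans 2-fold. Tf, Slc11a1, both Slc11a2 probes and the main Cp probe lie to the right of the band, while the second Cp probe has a bound of 0.60 log2 inside it.

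**Figure D4:**
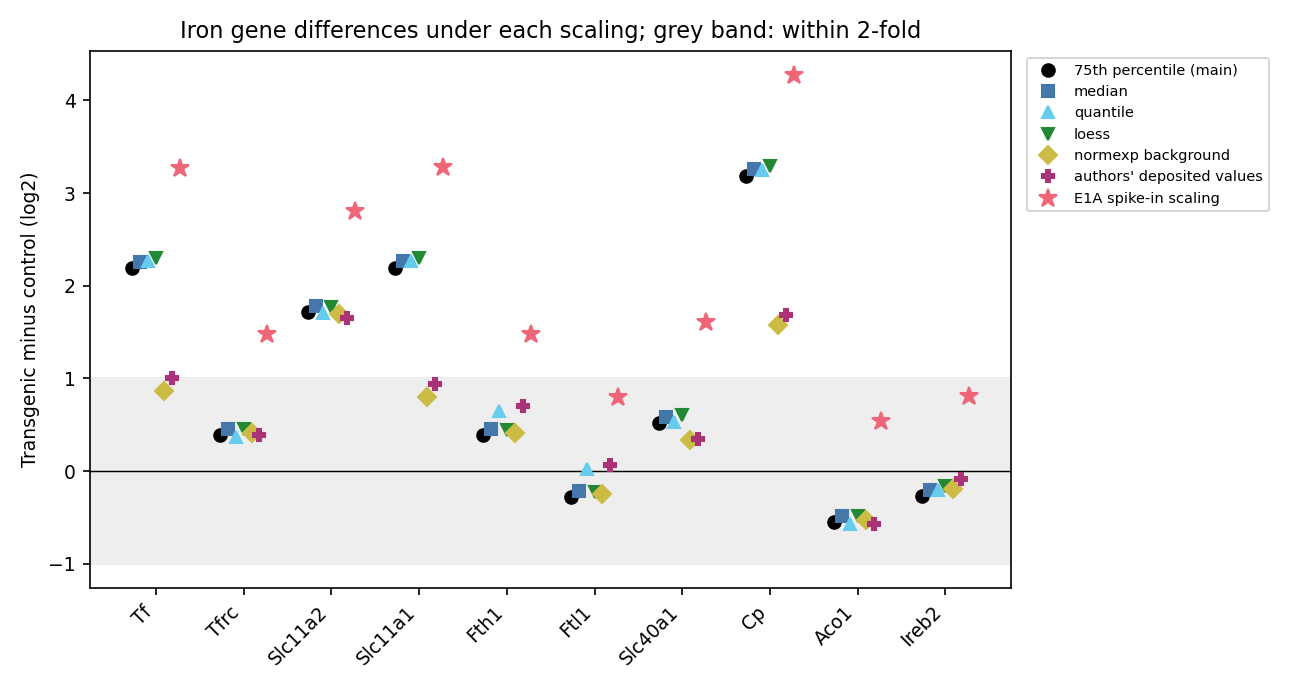
Difference of each iron gene (log2) under 7 scalings or value sources, with the 2-fold band in grey. Slc11a2 and Cp are above the band under each one plotted. Tf and Slc11a1 lie at 0.86 and 0.80 log2 with normexp correction, and all 10 genes are higher in transgenic with spike-in scaling.

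Further genes of iron handling were described by 6 lists, which held 93 genes in all beyond those above. Of these, 85 had a matched probe and 71 were above background on both arrays. Of the 71, 13 (18.3%) were at least 2-fold higher and 6 (8.45%) lower, beside 10.5% and 10.3% of all genes, and their median difference was 0.20 log2. With spike-in scaling 45 of the 71 were higher and 2 lower, beside 50.8% higher and 2.21% lower of all genes.

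Among 11 measured genes that reduce or move iron, 3 (27.3%) were at least 2-fold higher and 1 (9.09%) was lower, beside 10.5% and 10.3% of all genes. The median was 0.66 log2. Slc39a14, the ZIP14 importer of iron not bound to transferrin, read 85.0 units in control and 942 in transgenic and was 9.28-fold higher (2.32 log2 on another probe). Steap1 was 5.90-fold higher. Steap2, a metalloreductase, was 4.59-fold higher (1.08 log2 on another probe). The direction was opposite for Cybrd1, the duodenal-type ferric reductase, which read 1218 units in control and 326 in transgenic and was 4.46-fold lower. The reductase Steap4, the second transferrin receptor gene Tfr2 and Meltf were not above background on either array. Nor were Heph and Hephl1, the multicopper ferroxidases related to Cp.

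Secreted binders of iron, haem or siderophores were listed together with receptors and other partners. All 5 listed genes above background on both arrays had positive differences, with a median of 1.73 log2. Of the 5, 3 (60.0%) were at least 2-fold higher, beside 10.5% of all genes. Hp, which binds free haemoglobin, read 62.3 units in control and 45467 in transgenic and was 612-fold higher (9.26 log2), or 8.17 log2 with normexp correction and 8.24 log2 by the authors' deposited table. Hpx, the haem carrier haemopexin, was 3.31-fold higher and its receptor Lrp1 was 3.42-fold higher, although Hpx stood at 1.04 log2 with normexp correction. Bdh2, known for synthesis of a mammalian siderophore, differed by 0.95 log2. Lcn2, which binds siderophores, was above background in transgenic only, at 8.24 and 219059 units, which gives at least 12003-fold. Ltf and the haemoglobin receptor Cd163 were above background on neither array.

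The hepcidin pathway was mixed, with 2 of 13 measured genes higher (15.4%), 1 lower (7.69%) and a median of -0.14 log2, beside 10.5% and 10.3% of all genes. Bmp6, the ligand that links iron stores to hepcidin in the liver, was 3.71-fold higher (1.89 log2), or 1.17 log2 with normexp correction. Hfe, which associates with transferrin receptors, was 2.46-fold higher, a value that was 0.38 log2 with normexp correction. Bmp2 differed by 0.99 log2. Id1, a target gene of BMP signalling, was 6.37-fold lower. The hepcidin gene itself, Hamp, read 16.4 and 21.0 units, above background in transgenic only and without a 2-fold bound. It was named after its values were seen.

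Of 17 measured genes of haem metabolism, 1 was higher and 2 were lower, where 20.8% of all genes were past 2-fold in either direction, and the median was 0.22 log2. Slc46a1, a folate and haem transporter, was 2.19-fold higher and Flvcr2, a transporter of haem or choline, 2.63-fold lower. Slc46a1 stood at 0.98 log2 both with normexp correction and by the authors' deposited table, short of 2-fold. Slc48a1, which moves haem out of endosomes and lysosomes, was 2.04-fold lower. It came to -0.98 log2 with normexp correction and 0.06 log2 with spike-in scaling. The repressor Bach1 differed by 0.78 log2. Abcg2, an exporter of haem precursors, was above background in control only, at least 12.4-fold lower in transgenic. Hmox1, the haem oxygenase that frees iron from haem, read 18157 and 24831 units and differed by 0.20 log2. It too was named after its values were seen.

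In the mitochondrial list 2 of 21 measured genes were higher and 1 was lower, beside the same 20.8% of all genes past 2-fold in either direction, and the median was -0.00483 log2. The largest difference of the list was that of Slc25a37, the iron importer mitoferrin 1, at 77.0 units in control and 1731 in transgenic, 18.8-fold higher (4.24 log2). It differed by 3.41 log2 with normexp correction and 3.44 log2 by the authors' deposited table. Its paralogue Slc25a28, mitoferrin 2, held that median value, with signals of 5430 and 6455 units. It was named after its values were seen. Nfs1, the cysteine desulfurase of iron-sulfur assembly, was 2.03-fold higher (0.99 log2 with normexp correction). Bola3 was 2.07-fold lower (0.04 log2 with spike-in scaling), and Nfu1 differed by 0.80 log2. Of 4 other transcripts with iron-responsive elements above background on both arrays, 2 (50%) were higher, 1 (25%) was lower and 1 was within 2-fold. These shares stand beside 10.5% and 10.3% of all genes, and the median was 0.72 log2. Epas1, the hypoxia-inducible factor 2 alpha, was 8.02-fold higher and Cdc42bpa 3.31-fold lower. Cdc14a was 2.12-fold higher, or 0.47 log2 with normexp correction.

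**Figure D5:**
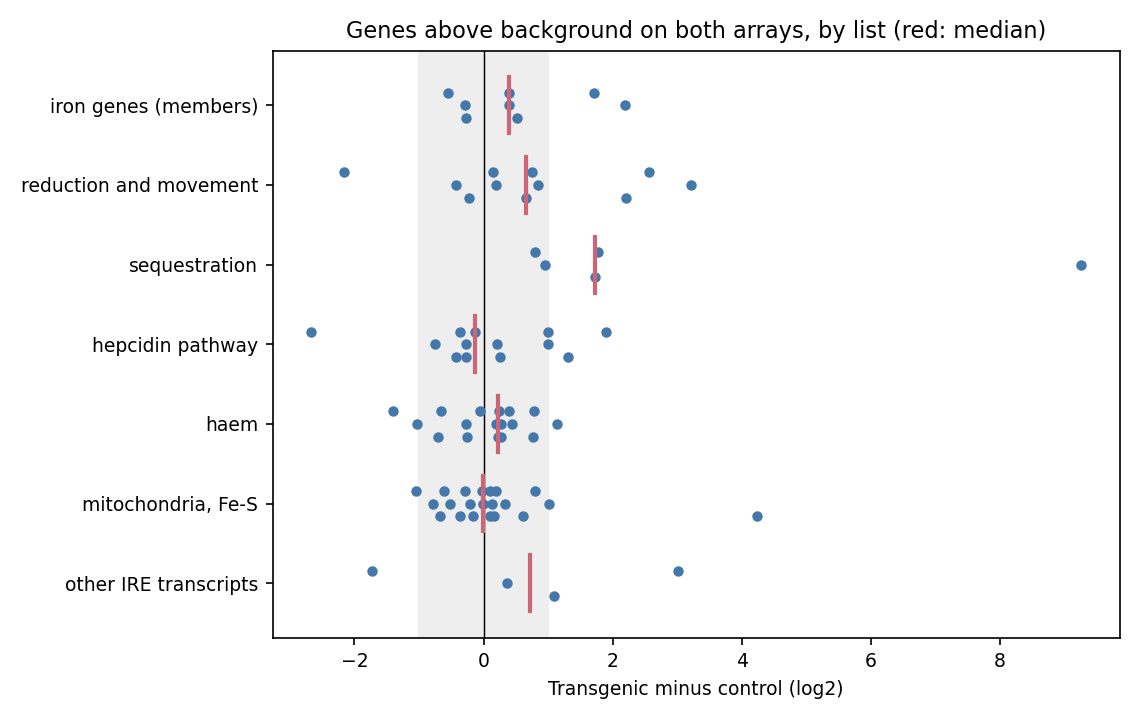
Differences (log2, transgenic minus control) of the genes above background on both arrays in the iron gene list and in 6 related lists, 1 point per gene, with the list median in red and the 2-fold band in grey. Slc25a37 is the point at 4.24 log2 in the mitochondrial row and Hp the point at 9.26 log2 in the sequestration row.

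Markers of the cells a marrow culture can hold were read beside these genes. Of all genes above background on both arrays, 10.5% were at least 2-fold higher and 10.3% lower. Of 12 stromal markers 10 were above background on both arrays, with 3 higher (30%) and 2 lower (20%). Their median was 0.43 log2, with 6 positive and 4 negative differences. Vcam1 was above background in transgenic only and Lepr on neither array. The summed signals were 391490 and 282248 units, mostly from Col1a1 (111314 and 86945) and Col1a2 (194668 and 109843). Erythroid markers concern Slc25a37 and Tfrc, which red cell precursors use heavily. Of 10 erythroid markers on the array, 6 were above background on both arrays, 2 of them higher (Ahsp, at 444 and 9597 units, and Hbb-b1) and 0 lower, with a median of 0.19 log2. The other 4, within 2-fold, were Hba-a1 (1576 and 1612 units), Epor, Klf1 and Tal1. Hbb was above background in transgenic only, while Gata1, Slc4a1 and Alas2 were on neither array. The summed signals were 2633 and 12331 units, the latter mostly from Ahsp. Of 6 granulocyte markers on the array only Camp was above background, on both arrays, with sums of 73.1 and 2465 units. Of 6 endothelial markers 3 were above background on both arrays, 1 of them lower, with sums of 894 and 314 units, and Pecam1, Kdr and Tek were above background on neither. The part of these cells in the iron gene values was not tested.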

How the data were processed

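Total RNA of bone marrow-derived stromal cells was read on 1 array per group. Per the file headers, the deposited scanner files hold spot intensity on a linear scale made with Agilent Feature Extraction 11.0.1.1, background-subtracted and not normalized between arrays, with flags for outlier, saturated and background spots. The authors' deposited value table is on a log2 scale, made by a method not given in the sources used here. It has column medians of 7.20 and 7.18 and unknown centring. It served as an alternative and held all 15 iron gene probes.

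Non-control spots flagged as outliers (446 and 505 of 58717) were left out, log2 signals were averaged per probe, and the 75th percentile of an array's probes was taken off. Accessions without versions were matched to RefSeq genes of GRCr8, which named 18005 of 30367 probes. The headers give the older build rn4, so no probe coordinates are given, and the promoter windows carry RefSeq's GRCr8 coordinates. The probe of highest mean signal stood for a gene. A probe above background on 1 array was set against the higher of its own dim signal and the lowest detected signal (15.3 and 15.9 units). Named were the 10 iron genes and up to 4 genes of each related list by absolute difference above background on both arrays, plus any with a bound of at least 2-fold. Other named genes were chosen after their values were seen. A gene of 1 related list is not reported here by name. The members and lists were chosen with earlier results of these data known.

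Alternatives were other scalings, normexp with an offset of 50 (limma 3.58.1) on the median spot signals, since the mean signals planned are not a column of the files used here, the authors' values, other filters, probe averaging, outlier spots kept and size rules of 1.5-fold and 3-fold. An alternative added after seeing the data called a probe above background when at least 50% of its spots were. The averaging and scaling steps were tested on simulated data in which only brighter probes were changed. Background calls and the bounds of dim probes were not tested in that way. The number of arrays limits the precision.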

Additional observations from a re-analysis of the deposited data

How the results depend on the processing

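The count of iron genes at least 2-fold higher, 2 of 8, stayed at 2 with median, quantile and loess scaling. Of all genes, 11.5%, 10.7% and 11.6% were higher under these scalings. It also stayed at 2 with the authors' deposited values (7.67% of all genes), probes of a gene averaged (10.5%) and outlier spots kept (10.5%). With size rules of 1.5-fold and 3-fold it was again 2, beside 19.1% and 4.81% of all genes. It was 5 with spike-in scaling, 1 with normexp correction (Slc11a2) and 1 of 5 among genes above the median signal. Of all genes, 50.8%, 8.15% and 10.2% were higher there. It was 4 of 10 without a filter on dim probes, with genes above background on at least 1 array, and with the added rule of at least 50% of spots, because these admit Cp and Slc11a1. By the main rule these genes were above background on the transgenic array only. Of all genes, 9.94%, 13.1% and 10.8% were higher under these filters. The count of iron genes lower was 0 under all 14 alternatives. The median of 0.39 log2 ran from 0.37 to 0.46 except with spike-in scaling, where it was 1.47. The count of related genes higher, 13 of 71, was 45 with spike-in scaling and 24 with the 1.5-fold rule. It was 5 of 44 among genes above the median signal, where 10.2% of all genes were higher. The count lower, 6, was 2 with spike-in scaling, 12 with the 1.5-fold rule and 3 with the 3-fold rule. Of all genes, 19.1% were higher and 22.5% lower with the 1.5-fold rule. With the 3-fold rule 4.12% were lower, and with spike-in scaling 2.21%. Over all genes, 1263 were higher and 1064 lower with normexp correction, against 1628 and 1591. No called iron gene turned its direction under any alternative. None of the iron gene spots was flagged as an outlier, so keeping outlier spots could move these genes only through the scaling. Tf, Slc11a1 and Cp were read close to background in control, and the size of their folds, like that of Hp, Hpx, Hfe, Bmp6, Slc25a37 and Cdc14a, moved by over 1.5 times with normexp correction. No paired analysis was possible because each group has 1 array.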
